A study of Mus musculus with 10 samples.

Results

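Fluticasone furoate (FF) was compared with dexamethasone (Dex) in RAW264.7, a macrophage-like cell line of the mouse, on 4 of the 10 single-channel arrays of the series. Both FF arrays and both Dex arrays carried RNA of cells given the glucocorticoid at 100 nM, 1 hour before lipopolysaccharide (LPS, a bacterial cell-wall component) at 1 µg/ml, with RNA taken at 16 hours. The other groups were EtoH and the compounds VSG22 and VSGC12, also with 2 arrays each. Whether LPS was added to EtoH cells is not stated, so EtoH serves here only as a solvent level without glucocorticoid. The compounds VSG22 and VSGC12 were given at the same dose and time as FF and Dex. A probe was kept where the scanner software called its spots well above background on both FF arrays, which left 22208 of 55681 probes and 17232 of 36309 genes, each represented by its brightest kept probe. A level is the log2 processed intensity minus the 75th percentile of its own array, and a difference is FF minus Dex on that log2 scale. A level near 0 is therefore a bright spot, and levels of different genes are not compared with each other. The labels do not say whether replicates were separate cultures, so p-values measure the spread between these arrays, which may be technical.

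The glucocorticoid receptor is a ligand-activated transcription factor that waits in the cytoplasm with chaperones and moves to the nucleus once a steroid binds. There it raises genes such as Fkbp5 and Tsc22d3 by binding DNA, and it lowers inflammatory genes that NF-kB, AP-1 and interferon factors drive in activated macrophages. Dexamethasone is a systemic glucocorticoid and fluticasone furoate an inhaled one. The latter carries a furoate ester, a fluoromethyl thioester in place of the hydroxyketone side chain of dexamethasone, and an additional fluorine. The comparison asks whether the 2 drugs differ in their effect on gene expression at this matched dose and time, and it is the only pair of compounds compared here.

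The 12 macrophage markers checked, among them Adgre1, Csf1r, Cd68 and Lyz2, were all kept, and their summed level lay between 9.52 and 9.59 on the 4 arrays. Of markers of other cells, 0 of 5 for B cells, 0 of 5 for epithelial cells, 2 of 6 for fibroblasts, 3 of 6 for T cells and 3 of 7 for neutrophils and mast cells were kept. On FF replicates 1 and 2 and then Dex replicates 1 and 2, the summed level of the T cell markers Cd3e, Cd4 and Lck was 6.27, 6.33, 5.54 and 6.69. That of the neutrophil and mast cell markers Elane, Camp and Tpsb2 was 6.53, 6.66, 5.20 and 6.77, and that of the fibroblast markers Dcn and Lum was -1.23, -1.52, -1.21 and -1.57. In the first 2 sets Dex replicate 1 was lowest and the drugs overlapped; the part of these signals in any result was not tested. The Dex arrays differed from each other more than those of any other group. Over genes, replicates differed with an SD of 0.62 in Dex, 0.33 in FF and between 0.31 and 0.38 in the other 3 groups. Stray local signal lies over part of the Dex arrays, and 9.3% of the genes kept have their probe in such a patch. Each slide held all 5 groups, so slide 1 and slide 2 give separate differences, but FF and Dex sat at the same places on both slides, and place and drug cannot be told apart. Depending on the array, 40.1% to 44.4% of non-control spots passed the background call, and the number of arrays limits the precision.

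The difference between FF and Dex was small for most genes. With limma and Benjamini-Hochberg adjustment over all 17212 genes tested, 0 genes (0%) passed an adjusted p of 0.05, and the lowest adjusted p was 0.106. At an unadjusted p under 0.05, 1252 genes (7.27%) were higher in FF and 1133 (6.58%) lower. Both FF arrays lay above both Dex arrays for 3722 of the 17098 genes with a value on all 4 arrays (21.8%) and below both for 3148 (18.4%). An exact permutation test of 2 arrays against 2 cannot give a two-sided p below 0.333, so single genes get none. The median difference over all genes was 0.02, with 0.03 on slide 1 and 0.02 on slide 2. At least 2-fold differences were counted for 370 genes higher in FF and 94 lower, a split that the filter on FF partly sets. On the 16223 probes well above background on all 4 arrays it was 174 higher and 93 lower. Among 226 genes that the filter left out although they were well above background on both Dex arrays, 100 were at least 2-fold lower in FF. That direction too is largely set by the selection. Of the 226, 85 (37.6%) have their probe in a Dex patch, and the largest of these differences lie mostly on such probes. The 95% interval of the difference lay wholly within 2-fold in either direction for 14434 genes (84.4%). These intervals rest on 1 spread shared by the 5 groups. The Dex arrays differed from each other more than those of other groups, so the intervals may be too narrow. Genes at an unadjusted limma p under 0.05 numbered 2385 in this fit, 1416 with array weights and 1350 with the FF and Dex arrays alone. Which genes passed depended on the setting. Leaving out Dex replicate 1 gave 193 genes called and leaving out Dex replicate 2 gave 154, against 0 without either FF array. An intensity trend with a robust variance prior, chosen after the data were seen, called 14 genes (0.0813%), of which 7 were higher in FF and 7 lower. Those 14 include the acute-phase gene Hp and the glutathione enzyme gene Mgst2 on the higher side, and the antiviral genes Rsad2 and Ifit2, the guanylate-binding protein gene Gbp3 and the chemokine gene Ccl7 on the lower side. The other lower genes, Asb11, Ifit3b and Dnajc19, have their probe in a Dex patch, as do 9.3% of the genes kept. Among the higher genes, Crtam was well above background on neither Dex array, so the filter sets its direction.

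Genes that differed between the VSG compounds and EtoH stood, in the median, further from EtoH with FF than with Dex. Since LPS treatment of the EtoH cells is not stated, glucocorticoid and LPS cannot be told apart in a difference from EtoH. The genes were chosen, after the data were seen, on the 4 VSG arrays against the 2 EtoH arrays alone, with limma at an adjusted p under 0.05 and at least 2-fold. That comparison shares no array with FF minus Dex. It gave 797 genes higher with the VSG compounds (4.66% of 17098) and 522 lower (3.05%). Over the 797 genes, the median difference from EtoH was 1.56 and 1.53 on the FF arrays and 1.13 and 1.27 on the Dex arrays. Both FF values lay above both Dex values. The median FF minus Dex difference over these genes was 0.27, with 0.34 on slide 1 and 0.23 on slide 2, beside 0.02 over all genes. Both FF arrays lay above both Dex arrays for 57.3% of the 797 genes and below both for 3.14%. Over the 522 genes, the median difference from EtoH was -1.31 and -1.36 on the FF arrays and -1.06 and -1.24 on the Dex arrays, so FF again lay further from EtoH. Their median FF minus Dex difference was -0.24, with -0.28 on slide 1 and -0.19 on slide 2. FF lay below Dex without overlap for 54.2% of them and above for 7.85%. These medians are descriptions with no test.

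The median difference between FF and Dex was larger for genes with a larger difference between the VSG compounds and EtoH. Among the 193 genes at least 4-fold higher with those compounds, the median FF minus Dex difference was 0.42, and 75.6% had both FF arrays above both Dex arrays. On these genes the median distance from EtoH was 2.68 and 2.69 in FF and 2.21 and 2.27 in Dex. Among the 70 genes at least 4-fold lower, the median difference was -0.41, and FF lay below Dex without overlap for 77.1%. The 15779 genes outside both sets had a median of 0.02. Outside the Dex patches, the medians of the 2-fold sets were 0.27 over 720 genes and -0.22 over 460 genes. On probes well above background on all 4 arrays, they were 0.26 and -0.26.

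**Figure D1:**
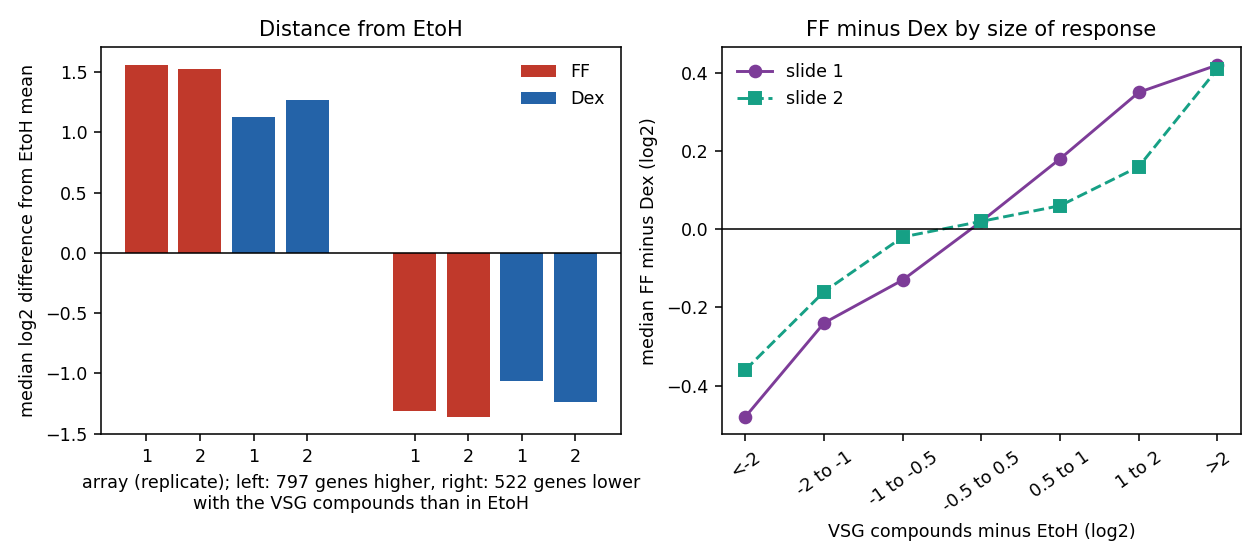
Left, the median log2 difference from the EtoH mean on each FF (red) and Dex (blue) array for 797 genes higher and 522 genes lower with the VSG compounds than in EtoH; bars start at 0. Right, the median FF minus Dex difference (log2) on each slide for genes binned by their VSG minus EtoH difference: it runs from -0.48 and -0.36 in the lowest bin to 0.42 and 0.41 in the highest.

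Textbook targets of the receptor divided into those with FF above Dex and several with intervals close to 0. Of 30 listed, 25 were kept. Both FF arrays lay above both Dex arrays for 13 and below both for 3, against a background of 21.8% and 18.4% of all genes. The median difference was 0.16 beside 0.02 over all genes, and it ran from 0.071 to 0.263 over 20 alternatives. At an unadjusted p under 0.05, 7 were higher in FF and 2 lower, against 7.27% and 6.58% of all genes, and with limma 0 of 25 passed an adjusted p of 0.05. Hp encodes haptoglobin, the haemoglobin-binding acute-phase protein (probe on mm9 chromosome 8, 112099045 to 112099104). Its level was 2.34 and 2.31 on the FF arrays, 1.38 and 1.41 on the Dex arrays and -2.70 on average in EtoH. FF and Dex did not overlap, and each pair of replicates lay close together. The difference was 0.93 ± 0.10 (SE), or 1.90-fold, with limma adjusted p = 0.112. With the trend and robust prior Hp was called, and its limma adjusted p ran from 0.0274 to 0.518 over 20 alternatives, with a difference from 0.91 to 1.06. Fkbp5 encodes a receptor co-chaperone that damps steroid binding (mm9 chromosome 17, 28536060 to 28536119). It stood at 5.21 and 4.99 in FF, 4.42 and 4.59 in Dex and 2.86 on average in EtoH. Its difference of 0.60 ± 0.13 is 1.51-fold, and it missed the threshold (limma adjusted p = 0.205).

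Tsc22d1, a leucine-zipper gene, was at -1.29 and -0.69 in FF and -2.5 and -1.44 in Dex (0.98 ± 0.40), with arrays far apart within both drugs. Its second kept probe went the other way, and the difference ran from 0.34 to 1.5 over the alternatives. Fam107a, an actin-associated stress gene, was at -1.32 and -1.20 in FF and -1.93 and -2.12 in Dex (0.76 ± 0.31). The 95% interval of each began at 0.02.

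Other targets gave intervals close to 0. Tsc22d3 encodes GILZ, a relative of the product of Tsc22d1 that restrains NF-kB and AP-1. Its level was 3.86 and 3.74 in FF and 3.80 and 3.78 in Dex, and the 95% interval of the difference ran from -0.20 to 0.22. Sgk1, a serum- and glucocorticoid-induced kinase gene, stood at 1.45 on both FF arrays and at 1.48 and 1.40 on the Dex arrays, with an interval from -0.27 to 0.29. Klf9, a glucocorticoid-induced zinc finger factor gene, had an interval from -0.26 to 0.31. For these 3 genes the groups overlapped, and a 2-fold difference lies outside each interval of this fit. The EtoH mean was 3.69 for Tsc22d3, 1.05 for Sgk1 and 1.72 for Klf9. Tsc22d3 and Klf9 thus lay near EtoH with both drugs, and their differences near 0 do not show equal induction. Per1, a clock gene that glucocorticoids induce, differed by 0.24 (interval -0.11 to 0.58). Its mean was 3.20 in FF, 2.97 in Dex and 3.49 in EtoH, so it was not above EtoH with either drug. Dusp1, whose phosphatase inactivates p38 and JNK, differed by 0.34 (interval -0.04 to 0.73), with means of 4.90 in FF, 4.56 in Dex and 4.73 in EtoH. The receptor gene Nr3c1 itself stood at 2.82 and 2.94 in FF and 3.05 and 2.93 in Dex (interval -0.33 to 0.11), with its 2 kept probes in opposite directions. Of 17 kept genes for receptor chaperones and cofactors, 0 were higher and 1, Hsp90aa1, lower in FF at an unadjusted p under 0.05. Over all genes these shares were 7.27% and 6.58%.

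Zfp36 went the other way. It encodes tristetraprolin, which promotes decay of cytokine mRNAs (mm9 chromosome 7, 29161940 to 29161999). Its level was 3.80 and 3.39 in FF, 4.13 and 5.08 in Dex and 3.21 on average in EtoH. Dex replicate 2 stood well above Dex replicate 1, so the difference of -1.01 ± 0.29 (limma adjusted p = 0.257) varied from -1.49 to -0.54 over the alternatives. Rgs2, a G-protein regulator gene, was at 2.71 and 2.49 in FF, 3.15 and 3.0 in Dex and 5.09 in EtoH. Its difference was -0.48 ± 0.13, and FF lay further below EtoH.

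**Figure D2:**
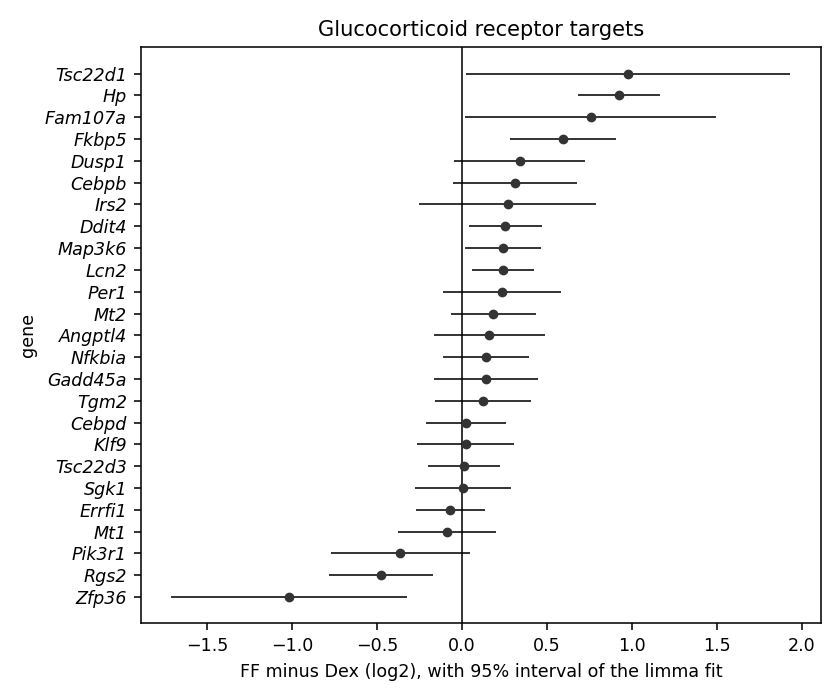
FF minus Dex difference (log2, points) with the 95% interval of the limma fit (lines) for the 25 kept receptor targets. Hp and Fkbp5 lie to the right of 0, Zfp36 and Rgs2 to the left, and Sgk1, Tsc22d3 and Klf9 on it.

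Promoters from RefSeq (GRCm38.p6, 250 bases before to 50 after the start) were matched for 22 of the 31 genes named whatever their values. The palindromic glucocorticoid response element, AGAACA and TGTTCT with 3 bases between, was found in 3 of 32851 promoters (0.00913%), and Sgk1 is the only 1 of the 22 that holds it. The arm AGAACA alone, on either strand, lies in 19.0% of all promoters. The element of Sgk1 begins 189 bases before the start (chr10:21993690-21993889, plus strand). The 200 bases before the start are printed with the element in capitals, beside an FF minus Dex difference of 0.01 ± 0.12.
Sgk1: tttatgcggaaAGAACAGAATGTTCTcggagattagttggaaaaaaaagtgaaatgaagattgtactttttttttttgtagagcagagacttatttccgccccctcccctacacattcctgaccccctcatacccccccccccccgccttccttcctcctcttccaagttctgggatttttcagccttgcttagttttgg

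Most mitosis genes had FF above Dex, though none passed the adjusted threshold. All but 1 of 45 listed mitosis genes were kept, and both FF arrays lay above both Dex arrays for 39 of these 44 and below both for 0, against the background of 21.8% and 18.4%. Their median difference was 0.34, with 0.35 on each slide. At an unadjusted p under 0.05, 26 were higher and 0 lower (7.27% and 6.58% of all genes). With limma 0 passed an adjusted p of 0.05. The median level of the list above EtoH was 1.99 and 1.96 in FF and 1.66 and 1.64 in Dex. Kif11, the kinesin motor that pushes spindle poles apart, stood at -2.36 and -2.49 in FF and -2.85 and -3.48 in Dex (0.74 ± 0.22, limma adjusted p = 0.263), on a probe in a Dex patch. Kif20a, a kinesin of cytokinesis, was at 0.78 and 0.47 in FF and 0.05 and -0.20 in Dex (0.70 ± 0.17, limma adjusted p = 0.218). For both, the lower FF array lay above the higher Dex array. Plk1, a kinase that controls entry into and exit from mitosis (mm9 chromosome 7, 129313220 to 129313279), was at 3.47 and 3.58 in FF, 2.94 and 2.89 in Dex and -0.64 on average in EtoH. Its difference was 0.61 ± 0.17, or 1.52-fold (limma adjusted p = 0.253), and its probe too lies in a Dex patch. Cdk1, the mitotic kinase, was at 4.10 and 4.01 in FF and 3.25 and 3.68 in Dex (0.59 ± 0.14). Ccna2, its S-phase and early mitotic cyclin, was at 1.17 and 0.81 in FF and 0.44 on both Dex arrays (0.55 ± 0.18). Ccnb2, a B-type cyclin, was at 2.47 and 2.40 in FF and 1.99 and 1.84 in Dex (0.52 ± 0.10). The groups did not overlap for any of these 3. Not every proliferation gene followed. Mki67, the proliferation antigen, differed by 0.17 (interval -0.08 to 0.41). Top2a, a DNA topoisomerase, differed by -0.05 (interval -0.31 to 0.21) and Incenp, a centromere protein, by -0.05 (interval -0.27 to 0.18).

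Genes of DNA replication differed less. Of 44 kept, 29 had FF above Dex and 1 FF below Dex without overlap (21.8% and 18.4% of all genes), and the median difference was 0.19 (0.17 on slide 1 and 0.22 on slide 2). The thymidine kinase gene Tk1 was at 4.16 and 4.07 in FF and 3.45 and 3.63 in Dex, a difference of 0.58 ± 0.09 (limma adjusted p = 0.149). The ribonucleotide reductase subunit gene Rrm2 differed by 0.48 ± 0.15 and the dUTPase gene Dut by 0.48. Mcm5, a subunit of the replicative helicase, differed by 0.22 (interval -0.05 to 0.48). Cdt1, the licensing factor, was the member below Dex without overlap, at 5.72 and 5.78 in FF and 6.25 and 6.00 in Dex (-0.37 ± 0.11). Unlike most of the list, Cdt1 was lower with FF than in EtoH, at 6.43 and 6.51. Tyms, the thymidylate synthase gene, had a lower difference of -0.63 ± 0.43, but its groups overlapped because Dex replicate 2 stood at 4.31 and Dex replicate 1 at 2.81, with FF at 2.83 and 3.03. The cyclin kinase inhibitor gene Cdkn1a had an interval from -0.19 to 0.27, and its 2 kept probes went opposite ways.

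The cell cycle homology region, TTTGAA on either strand, is a short element found near the start of many mitotic genes. It was added to the search after the data were seen. It lies in 17.9% of all promoters of 300 bases, in 27 of the 35 mitosis genes matched (77.1%) and in 13 of 39 interferon genes (33.3%). The first share counts promoters and the others genes, which may have more than 1 promoter. Kif11 (chr19:37376182-37376381, plus strand) and Cdk1 (chr10:69352913-69353112, minus strand) are shown because their differences are among those named above. Capitals mark the element, which begins 19 bases before the start in Kif11 and 71 and 15 bases before it in Cdk1.
Kif11: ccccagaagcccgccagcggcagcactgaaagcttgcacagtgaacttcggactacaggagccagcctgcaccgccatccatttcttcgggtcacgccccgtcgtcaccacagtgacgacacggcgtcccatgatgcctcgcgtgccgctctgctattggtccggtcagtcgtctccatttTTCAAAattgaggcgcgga
Cdk1: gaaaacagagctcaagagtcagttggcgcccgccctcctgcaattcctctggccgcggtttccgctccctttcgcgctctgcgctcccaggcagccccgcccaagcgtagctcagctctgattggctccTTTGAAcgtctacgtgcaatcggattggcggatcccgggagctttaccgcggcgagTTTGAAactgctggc

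More interferon-stimulated genes had FF below Dex than above, though none passed the adjusted threshold and 20 overlapped. Of 53 listed genes of the type I interferon response, 49 were kept. Both FF arrays lay below both Dex arrays for 28 and above both for 1, against 18.4% and 21.8% of all genes, and the median difference was -0.20, with -0.22 on slide 1 and -0.19 on slide 2. At an unadjusted p under 0.05, 16 were lower and 1 higher (6.58% and 7.27% of all genes). With limma 0 of 49 passed an adjusted p of 0.05. With the trend and robust prior, chosen after the data were seen, 3 were called (0.0813% of all genes). The median level of the list against EtoH was -0.38 and -0.43 in FF and -0.22 and -0.31 in Dex. Ifit2, whose product binds viral and cellular RNA (mm9 chromosome 19, 34650244 to 34650303), was at -1.43 and -1.50 in FF, -0.15 and -0.52 in Dex and 2.29 on average in EtoH. Its difference of -1.13 ± 0.12 is 2.19-fold lower in FF (limma adjusted p = 0.112), and over 20 alternatives its adjusted p ran from 0.00212 to 0.518. Rsad2, which encodes the antiviral enzyme viperin (mm9 chromosome 12, 27127859 to 27127918), was at 2.42 and 2.43 in FF, 3.30 and 3.08 in Dex and 6.28 in EtoH. FF lay below Dex by more than either pair of replicates differed (-0.77 ± 0.10, limma adjusted p = 0.115, from 0.0192 to 0.518 over the alternatives). Gbp3, an interferon-induced GTPase gene, was at 0.87 and 0.79 in FF and 1.74 and 1.65 in Dex (-0.86 ± 0.11, limma adjusted p = 0.115, from 0.0373 to 0.518 over the alternatives). The relative of Ifit2, Ifit3, was at -0.11 and -0.36 in FF and 1.04 and 0.72 in Dex (-1.11 ± 0.17), but its probe lies in a Dex patch. Irf7, the factor that amplifies interferon production, was at 4.02 and 4.20 in FF and 4.62 on both Dex arrays (-0.51 ± 0.10), and Ifit1 at 1.58 and 1.49 against 2.22 and 1.87 (-0.51 ± 0.15).

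Some interferon genes had intervals around 0, and Gbp6, the member with FF above Dex, has conflicting probes. Isg15, a ubiquitin-like protein gene, was at 8.38 and 8.12 in FF and 8.26 and 8.12 in Dex (interval -0.24 to 0.37), with its kept probes in opposite directions. Gbp6 was at 0.07 and 0.00 in FF and -0.87 and -1.42 in Dex, higher in FF by 1.18 ± 0.28 on a probe in a Dex patch. Its second kept probe went the other way, and the mean of its probes turned the sign. Mx1, the dynamin-like antiviral gene, was not kept because it was not well above background on both FF arrays. Among genes measured in at least 1 group it was at -3.81 and -3.86 in FF (above background on 1 of these 2 arrays), -2.46 and -2.52 in Dex and 0.56 and 0.50 in EtoH. The lowest signals counted as above background on the FF arrays were -3.82 and -4.22, so Mx1 lies at the edge of the FF range. Both FF values lie above these floors, so 2.55-fold higher in Dex is the measured estimate and not a lower bound. In that fit its measured difference was -1.35 with limma adjusted p = 0.0155, on a probe outside the Dex patches; with no filter on dim probes the adjusted p was 0.0821.

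The interferon-stimulated response element core, GAAA and GAAA with 2 bases between, lies in 3.44% of all promoters on either strand. It lies in 24 of 39 matched genes of the interferon list (61.5%) and in 3 of 35 matched mitosis genes (8.57%). Here too the list shares count genes and the first share promoters. Ifit3 (chr19:34583329-34583528, plus strand), Rsad2 (chr12:26456453-26456652, minus strand) and Gbp3 (chr3:142559844-142560043, plus strand) are shown as 3 of the 4 lowest members of the list. The promoters of Ifit2 in the table held no match. Capitals mark the core, read on the opposite strand in each case. It begins 156 and 122 bases before the start in Ifit3, 120 in Rsad2, and 45 and 39 in Gbp3, where the matches overlap.
Ifit3: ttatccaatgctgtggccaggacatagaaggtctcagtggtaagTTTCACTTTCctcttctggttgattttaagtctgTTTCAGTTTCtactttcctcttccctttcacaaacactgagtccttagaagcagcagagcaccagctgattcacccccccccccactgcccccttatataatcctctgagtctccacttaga
Rsad2: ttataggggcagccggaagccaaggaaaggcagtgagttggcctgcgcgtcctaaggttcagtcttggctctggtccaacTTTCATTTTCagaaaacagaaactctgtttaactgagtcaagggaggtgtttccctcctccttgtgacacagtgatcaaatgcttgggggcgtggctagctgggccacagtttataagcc
Gbp3: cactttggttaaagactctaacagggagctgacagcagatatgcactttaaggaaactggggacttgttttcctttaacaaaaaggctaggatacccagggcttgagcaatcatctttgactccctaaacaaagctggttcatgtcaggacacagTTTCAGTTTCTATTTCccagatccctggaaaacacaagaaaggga

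**Figure D3:**
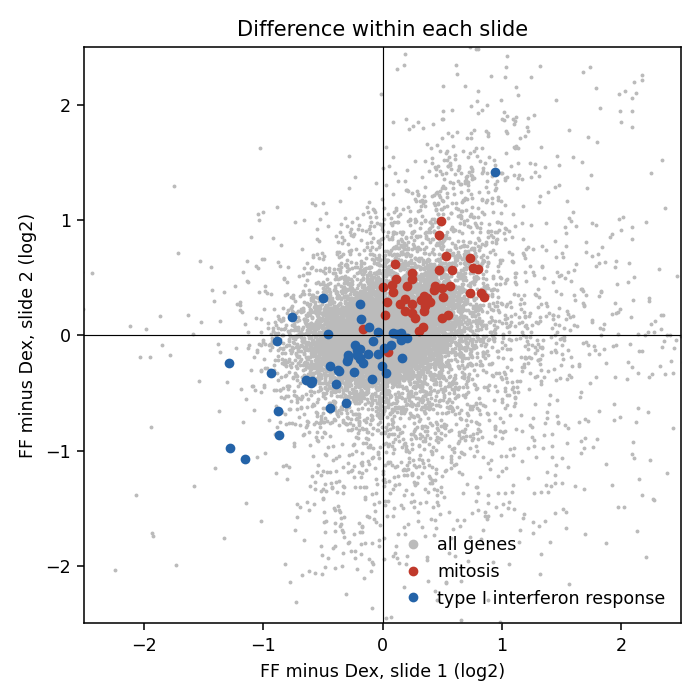
FF minus Dex (log2) on slide 1 (horizontal) against slide 2 (vertical) for 17098 genes (grey), of which 115 lie outside the axes at 2.5. Mitosis genes (red, n = 44) lie mostly above 0 on both slides and interferon genes (blue, n = 49) mostly below.

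Interleukin 1 family genes lay mostly below Dex with FF, while the other cytokines had a median near 0. Of 14 kept genes of the interleukin 1 family and its processing, 9 lay below Dex and 1 above without overlap (18.4% and 21.8% of all genes), with a median of -0.21 and 0 passing an adjusted p of 0.05 with limma. Il1rn, the receptor antagonist that blocks interleukin 1, was at 4.36 and 4.40 in FF and 4.97 and 4.88 in Dex (-0.55 ± 0.08, limma adjusted p = 0.142). Il33, an alarmin cytokine gene, was at -0.98 and -1.08 in FF, -0.28 and -0.37 in Dex and 3.76 in EtoH (-0.71 ± 0.27). For both genes the groups did not overlap. Il1b itself was at 4.65 and 4.48 in FF and 4.68 and 4.72 in Dex, and its interval ran from -0.39 to 0.12 on a probe in a Dex patch. Of the other cytokines, 17 were kept with a median of 0.01. At an unadjusted p under 0.05, 3 were lower and 0 higher (6.58% and 7.27% of all genes). These 3 are Il6, a fever and acute-phase cytokine (-0.36 ± 0.10), the anti-inflammatory Il10 (-0.34 ± 0.08) and Osm. Il6 was at 5.40 and 5.61 in FF and 5.94 and 5.80 in Dex. Tnf differed by -0.18 with an interval from -0.43 to 0.07, also on a probe in a patch. The median of these 17 changed sign over the alternatives (-0.056 to 0.024).

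Chemokine genes separated by member. The median of the 15 kept was -0.05. At an unadjusted p under 0.05, 4 were lower and 0 higher (6.58% and 7.27% of all genes). The 4 are the monocyte attractants Ccl2, Ccl7 and Ccl12 and the interferon-induced Cxcl10. Ccl7 (mm9 chromosome 11, 81860656 to 81860715) was at 5.81 and 5.56 in FF, 6.56 and 6.49 in Dex and 7.87 in EtoH (-0.84 ± 0.12, limma adjusted p = 0.133, from 0.0373 to 0.518 over the alternatives). Ccl12 was at -1.18 and -1.25 in FF and -0.02 and -0.19 in Dex (-1.11 ± 0.18). Both showed wide gaps between FF and Dex. Cxcl10 differed by -0.39 ± 0.10 and Ccl2 by -0.27 ± 0.11. Ccl5, a T cell and monocyte attractant, was at 7.36 and 7.33 in FF and 7.28 and 7.47 in Dex, with an interval from -0.24 to 0.19.

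Enzymes of inflammation gave mixed directions. Of 27 kept effectors, 4 were higher and 4 lower at an unadjusted p under 0.05 (7.27% and 6.58% of all genes). F3, tissue factor, which starts coagulation, was at 1.68 and 1.58 in FF and 0.79 and 0.62 in Dex (0.93 ± 0.17, limma adjusted p = 0.163). The collagenase gene Mmp13 was lower, at -3.62 and -3.78 against -3.21 and -3.05, on a probe in a Dex patch. Nos2, the inducible nitric oxide synthase, differed by -0.18 (interval -0.38 to 0.03), Ptgs2, the inducible cyclooxygenase, by -0.21 (interval -0.52 to 0.10, probe in a Dex patch), and Acod1, which makes itaconate, by -0.01 (interval -0.19 to 0.16).

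**Figure D4:**
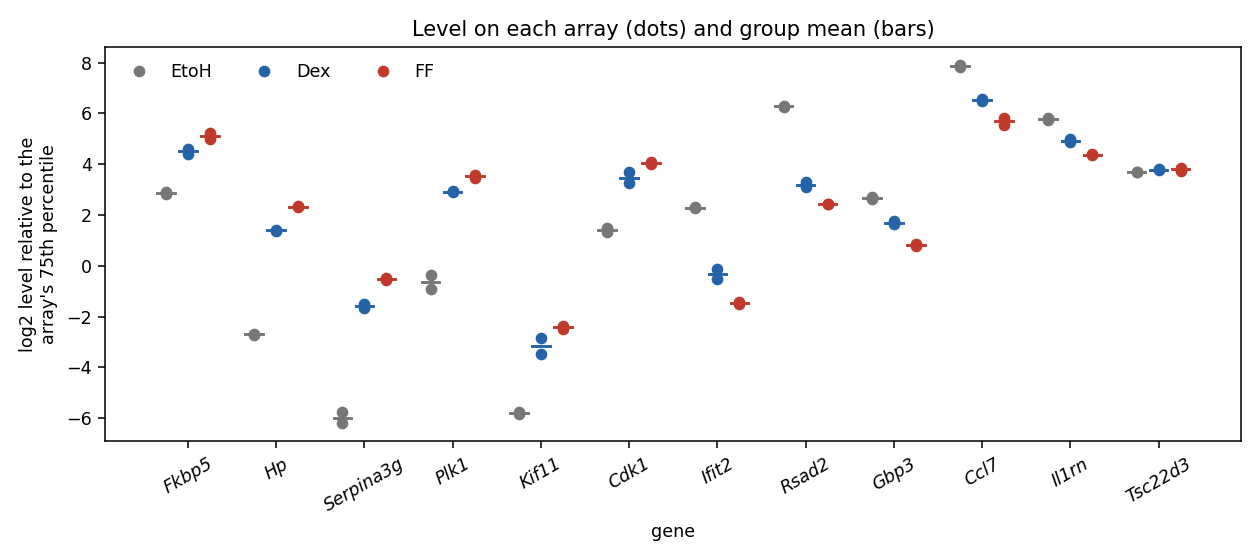
Log2 level relative to the array's 75th percentile on each EtoH (grey), Dex (blue) and FF (red) array (dots) with group means (short bars) for 12 genes. FF lies further from EtoH than Dex does for Hp, Serpina3g, Ifit2 and Rsad2, while Tsc22d3 is level.

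Factors and surface proteins of the macrophage differed by small amounts. Of 20 kept AP-1 and immediate early genes, 0 lay above Dex and 9 below without overlap, where all genes gave 21.8% and 18.4%. Their median was -0.12, from -0.199 to -0.045 over the alternatives. Atf3, a stress-induced factor, was at 5.56 and 5.77 in FF, 6.23 and 6.14 in Dex and 7.37 and 7.49 in EtoH (-0.52 ± 0.10, limma adjusted p = 0.173). Of 29 macrophage identity genes, 5 lay above and 13 below Dex, with a median of -0.08 (from -0.126 to -0.044). Aif1, an actin-binding protein, differed by -0.57 ± 0.13. Itgam, the CD11b integrin, went the other way, at 5.28 and 5.29 in FF and 4.73 and 4.96 in Dex (0.44 ± 0.12), though 1 of its 3 kept probes was lower in FF. Csf1r, the receptor for the macrophage growth factor, had an interval from -0.08 to 0.55. Of 21 genes of antigen presentation, 3 lay above and 11 below (median -0.12), among them the peptide transporter gene Tap1 (-0.55, on a probe in a Dex patch) and the co-stimulatory receptor gene Cd40 (-0.33). Of 20 phagocytic receptors, Clec7a, the beta-glucan receptor, was lower at -1.79 and -1.67 against -0.92 and -1.01 (-0.77 ± 0.29), and Mertk, which clears apoptotic cells, was at -1.72 and -1.24 against -1.94 and -1.95 (0.46 ± 0.19).

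Among acute-phase and complement genes, the members of the list diverged. Of 12 kept, 6 lay above and 5 below Dex without overlap (21.8% and 18.4% of all genes), and the median was 0.20. Serpina3g, a serine protease inhibitor gene, was at -0.57 and -0.47 in FF, -1.66 and -1.52 in Dex and -5.99 in EtoH (1.07 ± 0.16, 2.10-fold, limma adjusted p = 0.142). The related Serpina3f differed by 0.61 ± 0.20. The 2 genes are close relatives, and whether their probes share signal was not tested. Complement factor B, Cfb, was at 2.03 and 1.89 in FF and 2.57 and 2.28 in Dex (-0.46 ± 0.12). Here again FF lay further from EtoH, where Cfb stood at 3.87 and 3.76.

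Metabolic and stress genes had list medians near 0, though the counts in some lists were uneven. The medians were 0.07 for sterol synthesis, -0.07 for lipid handling, 0.09 for glycolysis and hypoxia, 0.06 for the respiratory chain, 0.04 for ribosome biogenesis, 0.02 for oxidative stress, 0.02 for unfolded protein stress, 0.05 for growth arrest and -0.06 for the circadian clock. NF-kB and Toll-like receptor genes had a median of -0.04 over 31, JAK-STAT genes -0.01 over 26, MAP kinase phosphatases and mRNA-decay genes 0.05 over 20, osteoclast genes -0.05 over 17, heat shock genes -0.07 over 11 and reference genes 0.03 over 16. Lpl, lipoprotein lipase, had an interval from -0.37 to 0.19, with its 2 kept probes in opposite directions. At an unadjusted p under 0.05, 7 of 27 lipid handling genes were lower in FF and 1 higher. For oxidative stress it was 5 of 23 lower and 1 higher, and for osteoclast genes 4 of 17 lower and 1 higher. Over all genes these shares were 6.58% and 7.27%. Of 28 respiratory chain genes, both FF arrays lay above both Dex arrays for 12 and below both for 5 (21.8% and 18.4% of all genes). Some single members differed more than the medians. The autophagy receptor gene Sqstm1 was at 6.37 and 6.85 in FF and 7.56 and 7.32 in Dex (-0.83 ± 0.18), on a probe in a Dex patch. Clcn7, a lysosomal chloride exchanger gene, was at 0.99 and 1.19 against 1.99 and 1.64 (-0.72 ± 0.13), outside the patches. Dusp14, a MAP kinase phosphatase gene, was at 0.62 on both FF arrays and at 1.26 and 1.04 on the Dex arrays (-0.53 ± 0.11).

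**Figure D5:**
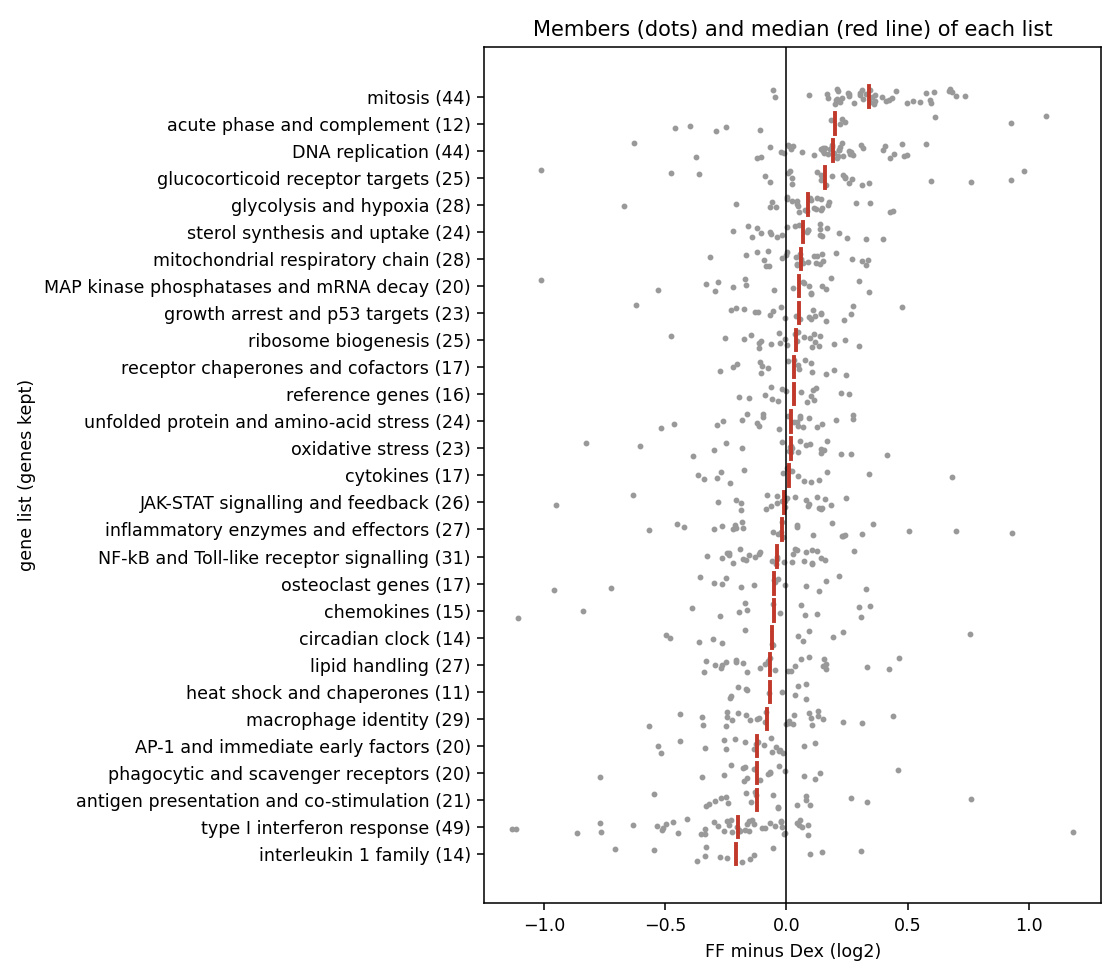
FF minus Dex (log2, horizontal) for each kept member (grey dots) of every list with at least 10 kept genes (number in brackets), with the list's median as a red line. The medians run from -0.21 for the interleukin 1 family to 0.34 for mitosis.

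For several of the genes with the widest gaps, Dex stood apart from EtoH and FF alike. No gene met the naming rule through its adjusted p, so the rule was applied with an unadjusted p under 0.05, a choice made after the data were seen. Among genes with a current symbol and a probe well above background on all 4 arrays, the 12 with the widest gap upward are Lpo, Gm7468, Gm10536, Chat, Hmgxb4, Tbx22, Smo, Gm1976, Catsper4, Syn3, Slc17a5 and Cep295. Gm7468, a predicted gene, was at 4.66 and 4.70 in FF, 3.18 and 3.22 in Dex and 4.14 on average in EtoH (1.48 ± 0.22, limma adjusted p = 0.142). Gm1976 was at -0.10 and -0.02 in FF, -1.28 and -1.15 in Dex and -0.30 in EtoH (1.15 ± 0.11). In both, Dex lay below FF and EtoH alike. Hmgxb4 was at 0.92 and 0.88 in FF and 0.87 in EtoH, with the Dex arrays apart at -1.92 and -0.19. Dex did not stand apart from EtoH for all 12. Gm10536 was at -1.58 and -2.73 in EtoH and -2.57 and -2.67 in Dex, and Syn3 at -1.44 and -2.54 against -2.01 and -2.68. Tbx22 was at 0.26 and -0.74 in EtoH against -0.30 and -0.88 in Dex, and Smo at -1.59 and -2.21 against -1.66 and -1.58. Lpo, the peroxidase of secretions, was at 3.04 and 4.39 in FF, 0.95 and 1.53 in Dex and 1.03 in EtoH (2.47 ± 0.69). Slc17a5, the lysosomal sialic acid exporter gene, was at 2.88 and 3.04 in FF, 1.57 and 1.88 in Dex and 0.43 in EtoH (1.23 ± 0.31). The second kept probes of Slc17a5 and of Smo went the other way, and over the alternatives the difference ran from 0.55 to 1.39 for Slc17a5 and from 0.07 to 1.53 for Smo. Over all 17076 genes with a value on every array, Dex stood below all 8 other arrays for 696 (4.08%) and above them for 475 (2.78%). FF stood below for 487 (2.85%) and above for 345 (2.02%). Standing apart was not particular to Dex. VSG22 stood below for 439 (2.57%) and above for 887 (5.19%), and VSGC12 below for 311 (1.82%) and above for 402 (2.35%). The 12 widest gaps downward are Asb11, Rpl19-ps5, Ifit3b, Ccl12, Ifit2, Calcoco2, Ifit3, Dnajc19, Cidea, Gbp3, C3ar1 and Dmtn, and 6 of these 12 have their probe in a Dex patch. Among those outside the patches, C3ar1, the receptor for complement C3a, was at -1.84 and -1.48 in FF, -0.67 and -0.73 in Dex and -0.14 in EtoH (-0.96 ± 0.17). Dmtn, an actin-bundling protein gene, was at 5.28 and 5.26 in FF, 6.02 and 6.22 in Dex and 6.60 in EtoH (-0.85 ± 0.13). Dnajc19, on a probe in a Dex patch, had similar values, at 5.30 and 5.23 in FF, 6.12 and 6.35 in Dex and 6.70 in EtoH. Its difference ran from -1.13 to -0.1 over the alternatives. Whether the probes of Dmtn and Dnajc19 share signal was not tested.

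The filter on FF shapes the rarest signals. Of the genes kept, 251 were not well above background on either Dex array, and all 114 of these at an unadjusted p under 0.05 were higher in FF, a direction the filter sets. For them a fold is given as a lower bound against the lowest signal counted as above background on the Dex arrays. Crtam, a lymphocyte adhesion receptor gene, was at -1.61 and -0.90 in FF and -1.20 on average in EtoH, and at least 5.68-fold higher in FF than in Dex. Asrgl1, an asparaginase gene, was at -1.40 and -0.75 in FF and at least 6.44-fold higher, and EtoH stood as low as Dex at -5.70. The olfactory receptor gene Olfr905 was at least 3.56-fold higher, Sfn, a 14-3-3 protein gene, at least 2.76-fold and Pabpc1l2a at least 2.56-fold, but for the latter pair the FF arrays differed from each other by more than 2 on the log2 scale. In the other direction, 226 genes were well above background on both Dex arrays and left out by the filter. Of these, 220 were lower in FF, a direction that this selection largely sets, and 85 (37.6%) have their probe in a Dex patch. Of the 226, 81 were above background on neither FF array, and 54 of these 81 lie in a patch. In the fit of genes measured in at least 1 group, 40 of the 226 were called lower in FF, again in the direction the selection favours. Of these 40, 32 have their probe in a patch, and Mx1 is among the other 8.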

How the data were processed

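RNA from 10 samples of RAW264.7 cells was labelled from 150 ng and read on single-channel Agilent arrays. Per the file headers, Feature Extraction 10.7.3.1 wrote each spot's intensity, with background subtracted and spatial trends removed in the processed signal, and mm9 probe positions; nothing was scaled between arrays. The other deposited columns used are the software's flags for spots above background, non-uniform or outlying. The submitters' processing notes list limma without a step.

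Flagged spots were left out, spots of a probe averaged on the log2 scale, and each array's 75th percentile subtracted. Names came from the GRCm38.p6 gene table (26525 probes by accession, 3786 by symbol, 716 by synonym; 24654 kept the file's name). All 10 arrays were fitted together with limma 3.58.1 in R 4.3.3 (lmFit and eBayes, group only, 5 residual and 1.96 prior degrees of freedom, two-sided, Benjamini-Hochberg over 17212 genes, threshold 0.05); of these genes, 114 lacked a value on 1 or more of the 4 arrays. A Dex patch is where, among the 24 neighbours of a spot, 3 or more passed the background call on a Dex array and on no array of another group. Fits were tested on simulated data. The rule for named genes took the widest gaps, the highest bounds, up to 4 members per list and 31 genes whatever their values; unadjusted p replaced adjusted p as no gene passed. The members and lists were chosen with earlier results of these data known. Alternatives covered scaling, background, filters, probes, arrays, weights, patches, flags, the slide and each left-out array. Deviations from group means correlated by slide with r between -0.05 and 0.37 across genes, which are not independent replicates, so replicate numbers mark slides and not pairs.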

Additional observations from a re-analysis of the deposited data

How the results depend on the processing

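The count of genes called, 0 with limma as reported, was 54 with each array's median subtracted (48 higher in FF), 1 with quantile normalization, 18 with normexp background correction (11 higher), 59 over genes measured in at least 1 group (46 lower), 3 with no filter on dim probes, 4 with every probe on its own and 14 with an intensity trend and robust prior, which was chosen after seeing the data. With the replicate block, which stands for the slide, 1 gene was called (Asb11, on a probe in a Dex patch), and 0 with the replicate block on the FF and Dex arrays alone. Leaving out 1 array gave between 0 and 193 calls, 193 without Dex replicate 1 and 154 without Dex replicate 2; the lone array is then assumed to vary like the other groups. The count stayed at 0 under the other 7 alternatives without a left-out array, among them the 4 arrays alone (1350 genes at an unadjusted p under 0.05) and array weights, which gave Dex 0.504 and VSG22 1.765. The cause of these shifts was not tested. Of the 14 genes called with the trend, 10 were also called with normexp, 10 without Dex replicate 1 and 2 with the array median. The median over genes higher with the VSG compounds ran from 0.229 to 0.299 over 20 alternatives, and over those lower from -0.324 without Dex replicate 2 to -0.164 without Dex replicate 1. List medians kept their sign over the 20 alternatives for mitosis (0.265 to 0.392), DNA replication (0.158 to 0.228), the interferon response (-0.258 to -0.143), the interleukin 1 family (-0.246 to -0.142), chemokines (-0.121 to -0.025), AP-1 genes, macrophage identity and receptor targets (0.071 to 0.263). The cytokine median (-0.056 to 0.024) and that of inflammatory enzymes (-0.048 to 0.019) changed sign. Of 144 named genes, 11 changed sign in some setting, among them Gbp6, Trp53inp1, Nr3c1, Sgk1 and Tsc22d3. With 2 arrays a group, single genes are known only to the intervals given, which rest on a spread shared by all 5 groups.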

Other observations

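A group of predicted genes with similar values stood among the 14 called with the intensity trend and robust prior. Gm3804 was at 2.93 and 2.80 in FF, 2.09 and 2.15 in Dex and -0.07 on average in EtoH. Gm4499 was at 2.65 and 2.47 in FF, 1.80 and 1.69 in Dex and -0.66 in EtoH. Gm3430 was at 3.14 and 3.0 in FF, 2.34 and 2.22 in Dex and -0.19 in EtoH. Their differences were 0.74, 0.82 and 0.79 on the log2 scale, and whether their probes read copies of 1 sequence was not tested. Mgst2, a microsomal glutathione transferase gene, was at 4.12 and 4.09 in FF, 3.59 and 3.56 in Dex and 2.11 in EtoH, a difference of 0.52 ± 0.07. These 4 genes lay further above EtoH with FF than with Dex. Osteoclast genes, which this line can express, included 2 of the larger downward differences, Clcn7 and Atp6v0d2, a subunit gene of the vacuolar proton pump. Atp6v0d2 was at -2.39 and -2.73 in FF, -1.99 and -1.21 in Dex and 0.04 and -0.38 in EtoH, on a probe in a Dex patch. Tcirg1, another subunit gene of that pump, differed by -0.36 on a probe outside the patches, while Acp5 differed by 0.14 and Nfatc1 by -0.05.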
